A study of Homo sapiens with 8 samples.

Results

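Mitochondrial ribosomal protein genes were followed in SH-SY5Y cells, an established human neuroblastoma line, by RNA-seq of polyadenylated RNA. Members were taken by name alone, as every entry of the deposited gene table whose symbol is MRPL (large subunit) or MRPS (small subunit) followed by a number and at most one of the letters A to C. The rule found 77 members among 47591 entries, 48 with an MRPL name and 29 with an MRPS name. MRPS6 is held in a joint entry with SLC5A3, and MRPL47 and the genes of the mitochondrial genome were not analysed here. The G2 line (3 libraries) carries a CRISPR/Cas9 edit at PRPF40B, which encodes a splicing factor, and was then selected with puromycin and grown from a clone by limiting dilution. The SCR line (3 libraries) carries a scramble control guide and also went through puromycin. By the methods of the study, G2 and SCR were also kept in puromycin during culture. The WT line (2 libraries) is the unedited stock, without puromycin, and the part of puromycin in the comparisons with WT was not tested. G2 is therefore 1 clone and 1 guide, and what belongs to the clone and what belongs to PRPF40B cannot be told apart. The labels call the libraries of a line biological replicates without saying how they were separated (by culture, passage or day), so p-values measure the spread between these libraries.

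The mitochondrial ribosome, or mitoribosome, makes the few proteins encoded by mitochondrial DNA, all of them core subunits of the respiratory chain and of ATP synthase. Its ribosomal RNAs come from the mitochondrial genome, but its proteins come from nuclear genes, are made in the cytosol and are imported. Many are counterparts of bacterial ribosomal proteins and others are found only in mitochondria. The names do not always follow the structure. MRPS18A and MRPS30 sit in the large subunit of the human particle, and MRPS36 is now known as a subunit of the ketoglutarate dehydrogenase complex.

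The values are counts that the authors normalized with DESeq2, called normalized counts here. Recovered totals ran from 59804395 to 81080747 counts per library. PRPF40B had 840, 841 and 918 normalized counts in G2, 1686, 1672 and 1669 in SCR, and 1972 and 1668 in WT. All G2 libraries lay below all controls (log2 fold change -0.95, standard error 0.08, in G2/SCR; exact two-sided permutation test of 3 G2 against 5 control libraries, p = 0.0357, the smallest this design allows). The markers of noradrenergic neuroblastoma given here were expressed above the filter in the table, and in G2/SCR PHOX2A, HAND2, ISL1, DBH, TH and CHGA passed lower and GATA3 passed higher. TH was scarce in all lines, with a mean of 1.88 in G2, 14 in SCR and 16.9 in WT, whereas CHGA had means of 3101, 26130 and 33445. Of 7 markers of blood, endothelial, epithelial and liver cells, EPCAM and KRT18 passed the filter, with line means between 0.993 and 68.2, PTPRC and CDH5 had means of at most 11.9, and CD3E, PECAM1 and ALB were at 0. Ribosomal RNA entries held 4.96% and 4.75% of the normalized counts in WT and 0.38% to 0.59% in the other lines, and the part of this difference in the comparisons with WT was not tested beyond the scalings given below.

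All 77 members were well expressed, with means over the 8 libraries from 1017 to 21331 normalized counts, so none was lost to the filter on low values (a mean of at least 10). Levels between genes were compared per kilobase of the main transcript. On this scale the highest large subunit members were MRPL33 (30408 normalized counts per kilobase), MRPL20 (22688) and MRPL12 (20946), the protein of the stalk that recruits translation factors. The lowest were MRPL42 (559) and MRPL19 (163). The reference transcript of MRPL42 has 15557 bases, and per gene it had a mean of 8626 normalized counts in G2. Among small subunit members MRPS21 (19659), MRPS34 (15494) and MRPS7 (13126) were highest per kilobase, and MRPS25 (807) and MRPS31 (684) were lowest.

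Summed over members, both subunits were lowest in G2. The 48 large subunit genes added up to 237056, 236289 and 240554 normalized counts in G2, against 254581, 253402 and 262377 in SCR and 355346 and 299036 in WT. For the 29 small subunit genes the sums were 153916, 153403 and 155828 in G2, 178566, 178702 and 185178 in SCR, and 232437 and 199801 in WT. The 3 lines did not overlap for either subunit, and the 2 WT libraries stood further apart than the libraries of the other lines. As a share of all normalized counts of a library the picture was simpler. Large subunit genes held 0.361% to 0.369% of the library in G2, 0.415% to 0.428% in SCR, and 0.460% and 0.419% in WT. Small subunit genes held 0.234% to 0.239% in G2, 0.291% to 0.302% in SCR, and 0.301% and 0.280% in WT. Measured this way G2 stayed below both controls, while SCR and WT overlapped. In bulk RNA, fewer cells with a usual level and less of this RNA in each cell cannot be told apart.

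**Figure D1:**
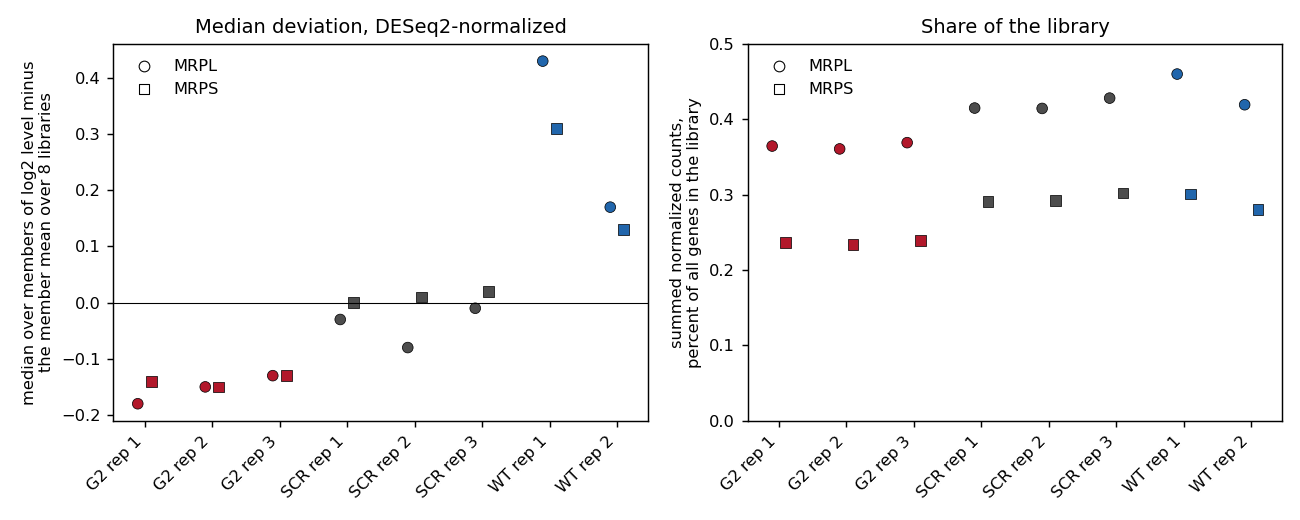
Large (MRPL, circles) and small (MRPS, squares) subunit genes in each of the 8 libraries, G2 in red, SCR in grey and WT in blue. Left, the median over members of the log2 normalized count + 1, less the member's own mean over the 8 libraries, where G2 lay between -0.18 and -0.13, SCR between -0.08 and 0.02 and WT between 0.13 and 0.43. Right, the summed normalized counts as a percent of the library, on an axis from 0, where the G2 libraries lay below all others.

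G2 was compared with SCR to ask which genes differ in the line with less PRPF40B from a line that went through the same selection. Of the 48 large subunit members 17 fell and 4 rose at an adjusted p of at most 0.05, and 27 did not pass. Of the 29 small subunit members 12 fell, 1 rose and 16 did not pass. Over all 18947 genes tested 23.4% passed lower and 25.7% higher, and at 1000 normalized counts or more, the range in which all members lie, 32.1% of 8169 genes passed higher and 28% lower. Together 29 of 77 members (37.7%) fell. The shift was modest, with a median log2 fold change of -0.11 over MRPL and -0.13 over MRPS members, beside -0.01 over all genes tested. In the fit with each WT library left out in turn 17 small subunit members fell and 3 rose, since all 8 libraries share the estimate of spread.

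A few members changed by more. In all, 7 members reached the thresholds of the study for differential expression (DE, a fold change of at least 1.5 with an unadjusted p of at most 0.05), 5 of them lower and 2 higher, whereas 11.8% of all genes tested were DE lower and 15.1% DE higher. MRPL34, at a log2 fold change of -0.58, lay just short of the fold threshold. Counted by non-overlap, 37 members (48.1%) had all G2 libraries below all 5 control libraries, beside 19.7% of all genes tested. Only 1 member, MRPS28, had all G2 libraries above all controls, beside 22.8%. All genes tested include genes of lower expression than any member. Shares of DE and of non-overlap, here and below, were not computed at the members' level, so these contrasts may differ there.

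**Figure D2:**
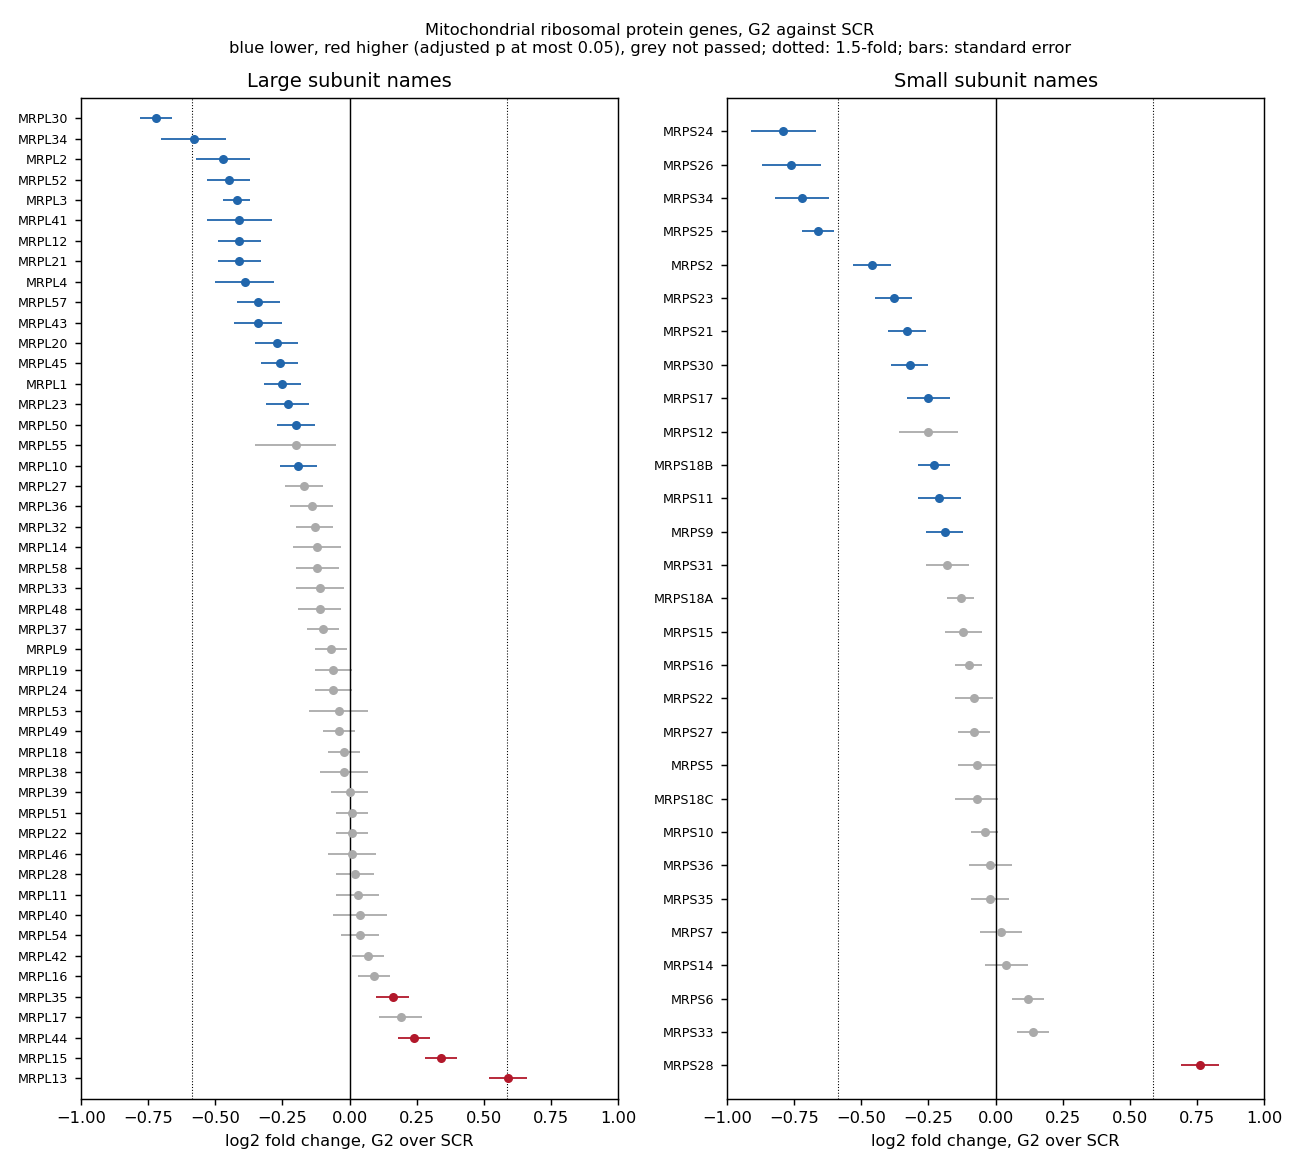
Log2 fold change in G2/SCR of each of the 48 large subunit (left) and 29 small subunit (right) members, with its standard error as a bar. Blue members passed lower, red passed higher and grey did not pass an adjusted p of 0.05, and dotted lines mark a 1.5-fold change. Most members lie between -0.5 and 0, MRPS24, MRPS26, MRPS34, MRPL30 and MRPS25 lie lowest, and MRPS28 and MRPL13 stand apart on the higher side.

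Among the small subunit members that fell, MRPS24 moved furthest. It is the counterpart of a bacterial protein that lines the channel by which mRNA enters the small subunit. In the table it is GSHG0040471, on chromosome 7 of hg38 from 43866558 to 43869517. MRPS24 had 3009, 3300 and 3784 normalized counts in G2, 6109, 5313 and 5929 in SCR, and 8993 and 6308 in WT. Every G2 library was far below every control, with a level 1.72-fold lower in G2 than in SCR (log2 fold change -0.79, standard error 0.12, adjusted p = 1.6e-04). Its entry overlaps UBE2D4.

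MRPS26, a protein particular to mitochondria (GSHG0026537, chromosome 20, 3046052 to 3048254), had 4090, 4112 and 4809 normalized counts in G2, 7421, 6723 and 7924 in SCR, and 9922 and 7343 in WT. G2 was again separate from the controls, whereas SCR and WT overlapped, and G2/SCR gave a log2 fold change of -0.76 (standard error 0.11, adjusted p = 7.9e-05). MRPS34, also particular to mitochondria and needed for a stable small subunit (GSHG0016888, chromosome 16, 1771895 to 1773139), had 9419, 8942 and 11082 in G2, 14760, 14862 and 19102 in SCR, and 23452 and 22086 in WT. Here the 3 lines formed 3 separate steps, and G2/SCR stood at -0.72 on the log2 scale (standard error 0.10, adjusted p = 8.6e-05). MRPS25 (GSHG0031072, chromosome 3, 15042251 to 15065317) had 2629, 2833 and 2794 in G2, 4175, 4216 and 4696 in SCR, and 4101 and 4085 in WT. For MRPS25 the SCR and WT libraries lay together and only G2 stood apart (log2 fold change -0.66, standard error 0.06, adjusted p = 3.1e-06, against SCR).

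The bases just upstream of the transcription start of these 4 genes are shown because the genes fell together by over 1.5-fold. They were copied from RefSeq promoters on GRCh38.p14, 100 bases each, 5′ to 3′ on the strand of the gene. Capitals mark the only exact match in them to CCGGAAGT, a site of the ETS family to which the mitochondrial gene regulator GABPA belongs, here read on the opposite strand.
MRPS24, chr7:43869518-43869617, minus strand: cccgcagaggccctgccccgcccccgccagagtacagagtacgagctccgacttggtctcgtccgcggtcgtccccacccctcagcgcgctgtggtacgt
MRPS26, chr20:3045952-3046051, plus strand: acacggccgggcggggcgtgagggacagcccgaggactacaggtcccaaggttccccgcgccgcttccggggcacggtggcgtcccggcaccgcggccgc
MRPS34, chr16:1773135-1773234, minus strand: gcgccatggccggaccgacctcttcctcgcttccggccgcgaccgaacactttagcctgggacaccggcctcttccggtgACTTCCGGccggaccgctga
MRPS25, chr3:15065316-15065415, minus strand: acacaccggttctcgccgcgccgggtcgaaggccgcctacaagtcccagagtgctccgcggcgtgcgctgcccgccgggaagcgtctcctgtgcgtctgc
Their GC content runs from 69.0% to 78.0%. The same stretch of MRPL30, which fell 1.65-fold and is not shown, has 55.0%, and the median of all RefSeq promoter windows, which are longer, is 58.3%.

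Over the whole family, 68 of 77 members had a RefSeq promoter window of 300 bases, 250 before and 50 after the start. The ETS site CCGGAAGT, read on both strands, was in 14.7% of them, beside 7.84% of the windows of the other genes tested and 4.44% of all 27305 windows. By subunit this ETS site was in 8 of 41 MRPL windows (19.5%) and in 2 of 27 MRPS windows (7.41%), a difference that was not tested. The core of the YY1 site, AAGATGGCG, was in 19.1% of member windows, beside 3.50% and 1.85%, and the full site, which is this core with GC after it, was in 14.7%, beside 1.73% and 0.916%. The palindromic site of the regulator NRF1 was in 1.47%, beside 2.21% and 1.36%. A match describes the letters only. At least 1 of these sites was in 8 of 25 members that fell in G2/SCR (32.0%) and in 14 of 42 that did not pass (33.3%).

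In 9 of the 10 members with the full YY1 site it lies just after the transcription start on the strand of the gene, and the ATG inside it is the GENCODE start codon in these 9 (in MRPL36 it lies before the start, on the opposite strand). Windows of 30 bases are shown for that reason, with the site in capitals, for 8 of them, since that of MRPL22 runs past the end of its promoter sequence. The first 4 belong to members that fell in G2/SCR.
MRPS24, chr7:43869478-43869507, minus strand: gcttggcccAAGATGGCGGCctccgtgtgc
MRPS18B, chr6:30617854-30617883, plus strand: gcgtacgtcAAGATGGCGGCgtctgtatta
MRPS30, chr5:44808951-44808980, plus strand: tcgcgggcaAAGATGGCGGCggccaggtgt
MRPL50, chr9:101398575-101398604, minus strand: atctcatcgAAGATGGCGGCgcgatctgtg
The other 4 belong to members that did not pass.
MRPS18A, chr6:43687762-43687791, minus strand: aggtttttgAAGATGGCGGCcctcaaggct
MRPS10, chr6:42217832-42217861, minus strand: gggaccggcAAGATGGCGGCgcggacagcg
MRPL38, chr17:75904858-75904887, minus strand: gccggagggAAGATGGCGGCgccctggtgg
MRPL46, chr15:88467360-88467389, minus strand: ggagaacgaAAGATGGCGGCgcccgtaagg

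Of the large subunit members that fell, MRPL30 changed most. It is a counterpart of a bacterial protein and lies in the table as GSHG0024116, on chromosome 2 from 99181115 to 99199561. MRPL30 had 5325, 5151 and 4704 normalized counts in G2, 8273, 8446 and 8319 in SCR, and 8663 and 7617 in WT. As with MRPS25, the controls lay together and G2 alone was low, at a level 1.65-fold below SCR (log2 fold change -0.72, standard error 0.06, adjusted p = 1.8e-06). MRPL34 (GSHG0021370), one of the smallest proteins of the large subunit, had 2164, 2289 and 2742 in G2, 3603, 3348 and 3740 in SCR, and 5368 and 3771 in WT. Its log2 fold change of -0.58 (standard error 0.12, adjusted p = 1.7e-03) ran from -0.68 without G2 replicate 3 to -0.51 without G2 replicate 1, so it crossed 1.5-fold without G2 replicate 3 and without SCR replicate 2 (-0.62).

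MRPL3, MRPL12 and MRPL10 were among the members that fell. MRPL11, a protein of the site where translation factors act, did not pass (log2 fold change 0.03, adjusted p = 0.76). MRPL3, a core protein of the large subunit near the peptidyl transferase centre, had 5590, 5439 and 5491 normalized counts in G2, 7243, 7524 and 7361 in SCR, and 9726 and 8948 in WT (log2 fold change -0.42 in G2/SCR, standard error 0.05, adjusted p = 2.9e-05). MRPL12 had 15666, 15631 and 16563 in G2, 21035, 20228 and 22154 in SCR, and 32463 and 25339 in WT (log2 fold change -0.41, standard error 0.08, adjusted p = 1.1e-03). Both genes stepped down from WT to SCR to G2 with no overlap. MRPL10, which anchors the stalk, fell less, with 9456 ± 274 normalized counts in G2 against 10802 ± 518 in SCR (mean ± SD, n = 3 each), and its call at a log2 fold change of -0.19 was lost with any of 5 libraries left out (adjusted p from 0.051 without SCR replicate 2 to 0.13 without SCR replicate 1). MRPL52, found only in mitochondria, fell by 0.45 on the log2 scale, MRPL21 by 0.41 and MRPL20 by 0.27. MRPL41 (log2 fold change -0.41) and MRPL4 (log2 fold change -0.39) were lost as calls without G2 replicate 1 (adjusted p = 0.080 and 0.053), and also without SCR replicate 3 for MRPL41 (0.072) and without SCR replicate 1 for MRPL4 (0.055). MRPL23, at the peptide exit, had a log2 fold change of -0.23 that was lost with 4 of the libraries left out, with adjusted p up to 0.11 (without SCR replicate 3).

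Members were also grouped by their place in the particle. A list of 6 proteins of the central protuberance, the knob that faces the small subunit, was used, and it need not be complete. Of these 6, 0 passed in limma (1 at an unadjusted p of at most 0.05, 1 in edgeR and 1 in DESeq2 after adjustment). Their log2 fold changes ran from -0.17 for MRPL27 to 0.04 for MRPL40. Of 5 proteins around the exit of the peptide tunnel, MRPL23 and MRPL45, which ties the ribosome to the inner membrane, fell and 3 did not pass. Large subunit members with a bacterial counterpart had 11 of 29 lower and a median of -0.13, and those found only in mitochondria had 6 of 19 lower and a median of -0.04. In the small subunit the counts were 6 of 16 and 6 of 13, with medians of -0.11 and -0.18. The difference between these classes was not tested, nor that from the 28% of genes at 1000 normalized counts or more that passed lower.

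The 3 genes that share the MRPS18 name are given side by side. MRPS18B had 6999, 7210 and 7222 normalized counts in G2 and 8103, 8336 and 8630 in SCR, and it fell (log2 fold change -0.23, adjusted p = 5.9e-03). MRPS18A, whose product sits in the large subunit, had 4726, 4877 and 4779 in G2 and 5288, 5386 and 5116 in SCR, and missed the threshold narrowly (-0.13, adjusted p = 0.051). MRPS18C had 1979, 1741 and 1747 in G2 and 2017, 1951 and 1786 in SCR, and these libraries overlapped (-0.07, adjusted p = 0.47). MRPS18A passed with only the 2 lines fitted, at a mean of at least 100, with edgeR and with DESeq2. It also passed with all libraries scaled to the same total, with or without ribosomal RNA entries (log2 fold change -0.23, adjusted p = 0.0022 in both). Its call therefore depends on these settings. MRPS30, the other protein named for the wrong subunit, fell to 2983 ± 273 normalized counts in G2 from 3702 ± 22.2 for SCR (mean ± SD, n = 3 each), and MRPS36 had means of 2776 in G2 and 2823 in SCR (adjusted p = 0.84). With MRPS18A and MRPS30 counted in the large subunit and MRPS36 left out, 18 of 50 large and 11 of 26 small subunit members fell.

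Of the 5 members that rose in G2/SCR, 3 lie on chromosome 8. MRPS28, the mitochondrial relative of bacterial protein S1, had 5490, 5450 and 5005 normalized counts in G2, 2931, 3134 and 3388 in SCR, and 4347 and 4273 in WT. All G2 libraries were highest, with a log2 fold change of 0.76 against SCR (standard error 0.07, adjusted p = 1.4e-06) and of 0.30 against WT (standard error 0.07, adjusted p = 4.3e-03). MRPL13 had 9451, 9259 and 8445 in G2, 5699, 6048 and 6240 in SCR, and 8515 and 7329 in WT, so G2 was above SCR but overlapped WT (log2 fold change 0.59 against SCR, standard error 0.07, adjusted p = 1.9e-05, and 0.19 against WT, adjusted p = 0.052). MRPL13 was under 1.5-fold in G2/SCR with G2 replicate 1, G2 replicate 2 or SCR replicate 1 left out (0.56, 0.58 and 0.56). In G2/WT it passed higher with all libraries scaled to the same total (0.38, adjusted p = 0.0006). It also did so with a trend on transcript length and GC content taken out (0.28, adjusted p = 0.00088) and a pseudocount of 8 (0.19, adjusted p = 0.048). In the first 2 of these settings 0 large subunit members were DE higher in G2/SCR. MRPL15 had 10880, 9929 and 11016 in G2, 8235, 8335 and 8509 in SCR, and 11468 and 9948 in WT, with a log2 fold change of 0.34 against SCR (adjusted p = 7.6e-04) and -0.01 against WT.

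These are the only 3 members on chromosome 8, and each was set beside the 80 tested genes nearest to it on the chromosome (40 on each side, with a mean of at least 100). The median log2 fold change of the neighbours in G2/SCR was 0.66 for MRPS28, 0.50 for MRPL13 and 0.49 for MRPL15, and 67, 55 and 56 of the 80 neighbours rose. In G2/WT the neighbours' medians were 0.69, 0.45 and 0.41, and in SCR/WT they were -0.06, -0.03 and -0.09. In G2/SCR the 3 members were higher, as were the medians and most of the genes around them. In G2/WT each of the 3 lay below its neighbours' median. The part of this regional shift in the members' values was not tested. On other chromosomes the neighbours' medians in G2/SCR ran nearer to 0, with -0.05 for MRPS24 and MRPS25, -0.09 for MRPS26, -0.11 for MRPS34 and 0.08 for MRPL30. Across the 77 members the Pearson correlation of a member's log2 fold change with the median of its neighbours was 0.61 in G2/SCR, and 0.36 over the 74 members off chromosome 8, as a description of points that share libraries and in part neighbours. MRPS33 on chromosome 7 had the next highest neighbours (median 0.36) and a log2 fold change of 0.14 itself, which did not pass (adjusted p = 0.057). It passed higher with edgeR (adjusted p = 0.014), DESeq2 (0.009), only the 2 lines fitted (0.016) and a mean of at least 100 (0.047). Off chromosome 8, 29 of 74 members fell and 2 rose in G2/SCR. These were MRPL44, with an RNase III fold (log2 fold change 0.24, adjusted p = 8.1e-03), and MRPL35 (0.16, adjusted p = 0.038), whose call was lost with any of the 6 G2 and SCR libraries left out. On scaling all libraries to the same total neither of them passed (adjusted p = 0.11 and 0.28).

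**Figure D3:**
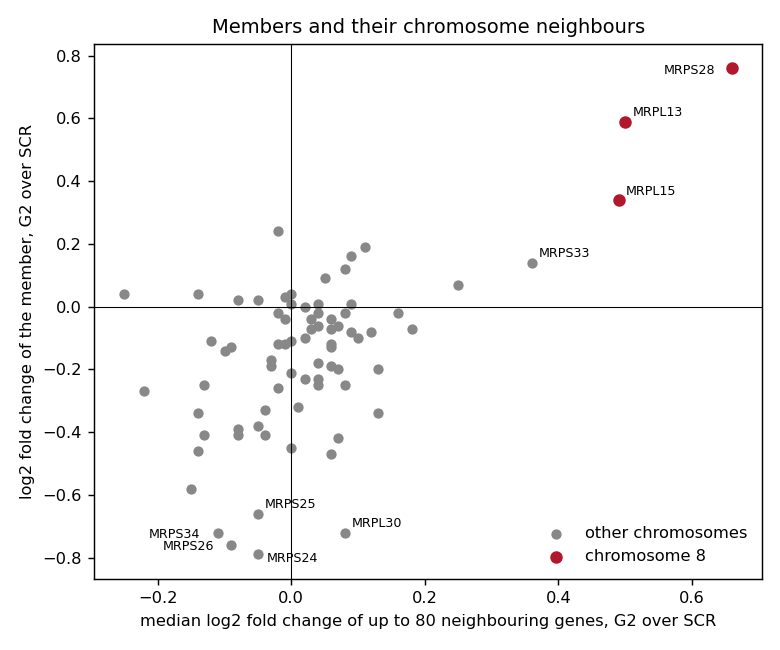
Log2 fold change in G2/SCR of each of the 77 members (vertical axis) against the median of its neighbouring genes on the chromosome, up to 80 of them (horizontal axis). The 3 members on chromosome 8, in red, lie at the upper right with neighbour medians of 0.49 to 0.66, and the 5 members that fell most lie at neighbour medians between -0.11 and 0.08.

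**Figure D4:**
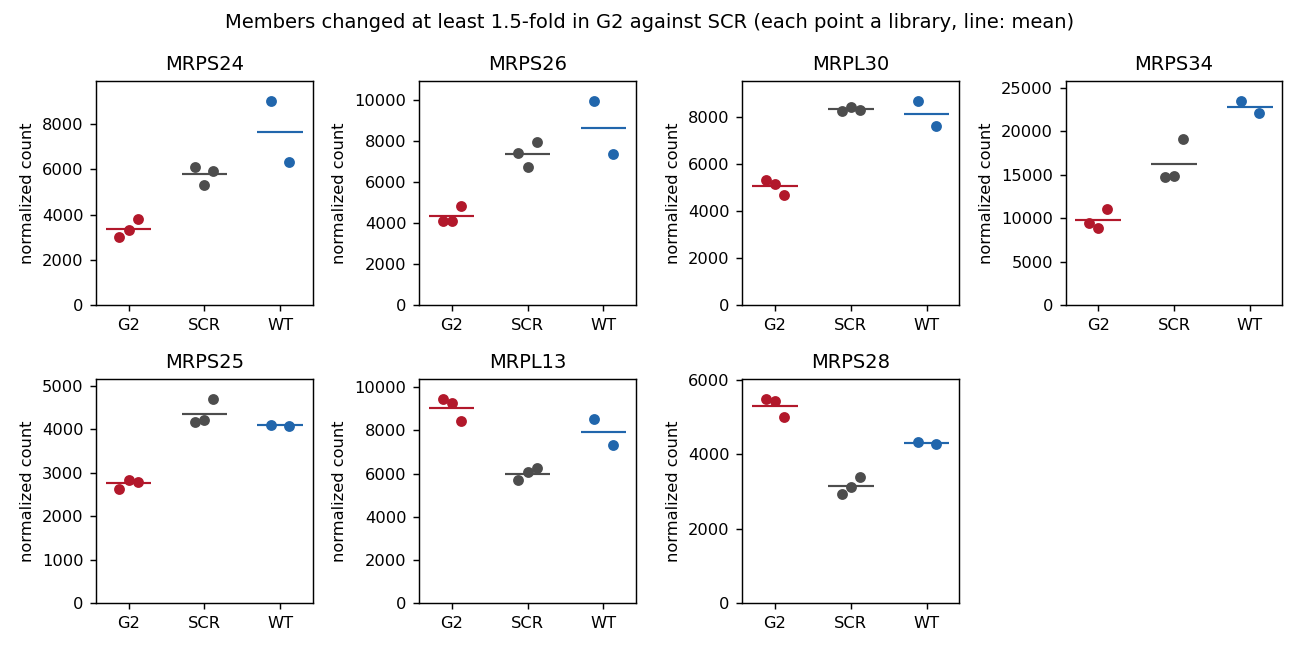
Normalized counts of the 7 members that changed at least 1.5-fold in G2/SCR, with a point for each library, a line at the mean of each line of cells, and axes from 0. In the first 5 panels all G2 libraries lie below all SCR and WT libraries, in MRPL13 they lie above SCR only, and in MRPS28 they lie above both.

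In normalized counts most members were lower in G2 and in SCR than in the unedited stock, though not in SCR on every scaling. The comparisons with WT ask what differs from cells that had no guide, no selection and no puromycin in culture. G2/WT shares its G2 libraries with G2/SCR and its WT libraries with SCR/WT. In G2/WT 38 of 48 large subunit members fell and 10 did not pass, and 23 of 29 small subunit members fell, 1 (MRPS28) rose and 5 did not pass, beside 25.4% of all genes tested lower and 27.2% higher. At 1000 normalized counts or more, 38.8% of genes passed lower. The medians were -0.46 for MRPL and -0.39 for MRPS, beside 0.00 over all genes. In SCR/WT 32 of 48 large and 17 of 29 small subunit members fell, beside 18.3% of all genes lower and 17.0% higher, and 33.0% lower at 1000 normalized counts or more. Here the medians were -0.32 and -0.22, beside 0.01 over all genes.

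These comparisons lean on 2 WT libraries that differ from each other. WT replicate 1 was above WT replicate 2 in 72 of 77 members, by a median of 0.23 on the log2 scale, while the median over all genes tested was 0.03. In SCR/WT the number of members lower was 23 (MRPL) and 8 (MRPS) without WT replicate 1, and 42 and 24 without WT replicate 2. The small subunit count in SCR/WT also dropped to 10 without SCR replicate 1 and 11 without SCR replicate 2. In G2/WT, 14 MRPL and 5 MRPS members were DE lower (12.2% of all genes tested), and these counts were 8 and 4 without WT replicate 1 and 24 and 9 without WT replicate 2. Scaled to the same total, the median of all genes moved to 0.19 in G2/WT and 0.29 in SCR/WT. A scaling moves all genes alike, so the members' medians less that of all genes are the same by construction (-0.46 and -0.40 in G2/WT, -0.33 and -0.23 in SCR/WT). The counts in SCR/WT became 9 lower and 5 higher for MRPL and 2 lower and 5 higher for MRPS. In G2/WT 29 MRPL and 16 MRPS members were still lower on this scale.

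The largest steps in G2/WT were those of MRPS34 (log2 fold change -1.22, standard error 0.11, adjusted p = 2.7e-06) and MRPS24 (-1.17, standard error 0.13, adjusted p = 1.5e-05). MRPS26 followed at -0.98, MRPL34 at -0.91, MRPL23 and MRPL12 at -0.85, and MRPL52 at -0.80. MRPS2, a small subunit protein with a bacterial counterpart, had 2683, 2775 and 2920 normalized counts in G2, 3952, 3599 and 3999 in SCR, and 5276 and 4437 in WT, so its lines did not overlap (log2 fold change -0.46 against SCR and -0.79 against WT). By contrast MRPS25 (-0.57), MRPL30 (-0.68) and MRPS30 (-0.23) had no larger change against WT than against SCR, and SCR/WT values were 0.09, 0.04 and 0.08, which did not pass. At the same total for every library these SCR/WT values were 0.37, 0.32 and 0.36 and passed (adjusted p = 1.9e-03, 2.0e-03 and 3.5e-03), beside an all-gene median of 0.29, and without ribosomal RNA entries in the total they were 0.30, 0.25 and 0.29 and passed, beside 0.22. MRPS30 lost its call in G2/WT without G2 replicate 2 (adjusted p = 0.095) and without WT replicate 1 (adjusted p = 0.078), as it did at the same total (log2 fold change -0.05, adjusted p = 0.64), without ribosomal RNA entries in the total (-0.11, adjusted p = 0.25), with no trend in the fit (adjusted p = 0.065) and with only the 2 lines fitted (adjusted p = 0.063).

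There were 5 large subunit members DE lower in SCR/WT, beside 5.63% of all genes tested, and small subunit members stayed within 1.5-fold. MRPL58, a release factor that frees stalled ribosomes and is built into the large subunit, had 6918, 7762 and 8391 normalized counts in SCR, 13135 and 11215 in WT, and 7333, 6627 and 7183 in G2. G2 and SCR overlapped and both lay below WT (log2 fold change -0.66 in SCR/WT, standard error 0.09, adjusted p = 1.8e-04, and -0.12 in G2/SCR, adjusted p = 0.23). MRPL48 of the central protuberance had 1337, 1453 and 1406 in SCR, 2419 and 1961 in WT, and 1325, 1283 and 1291 in G2 (log2 fold change -0.64 in SCR/WT, standard error 0.09, adjusted p = 2.4e-04). MRPL54 (-0.62), MRPL23 (-0.62) and MRPL11 (-0.60), a protein of the site where translation factors act, also had G2 and SCR below WT, with G2/SCR values of 0.04, -0.23 and 0.03. Without WT replicate 1 all 5 were under 1.5-fold in SCR/WT, and without WT replicate 2 the number of DE large subunit members was 10. In the small subunit the smallest p-values in SCR/WT belonged to MRPS15 (log2 fold change -0.46, adjusted p = 5.4e-04), MRPS28 (-0.45, adjusted p = 5.8e-04) and MRPS18C (-0.50, adjusted p = 1.2e-03). MRPS24, at -0.38 (adjusted p = 0.042), lost its call in SCR/WT with any of 5 libraries left out, and without WT replicate 1 its log2 fold change was -0.13.

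Members have short transcripts, and libraries of the same line differed with transcript length and GC content. The median main transcript was 1143 bases in MRPL and 1458 in MRPS members, beside 3118 over the 15284 tested genes with a reference transcript. Over the 77 members the difference between WT replicates 1 and 2 had a Pearson correlation of 0.54 with GC content and -0.47 with length. The difference between G2 replicates 3 and 1 had a correlation of 0.74 with GC content, and that between SCR replicates 3 and 2 of 0.42. Over the 15207 other genes the 3 correlations with GC content were 0.20, 0.18 and 0.13. The log2 fold change itself had a correlation with GC content of -0.39 for G2/SCR and -0.55 for G2/WT over the members, and -0.08 in both over the other genes. All of these describe points that share libraries. After the trend on length and GC content was taken out of each library, 16 MRPL and 15 MRPS members were lower in G2/SCR. The same setting left 36 and 24 lower in G2/WT, with 28 and 14 in SCR/WT. Of the 29 members that fell in G2/SCR 27 still did, MRPL41 (adjusted p = 0.11) and MRPL23 (0.96, with a log2 fold change of 0.00) being the others.

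In 27 members the entry overlaps another expressed gene, such as FAU for MRPL49, GAPDH for MRPL51, SARS2 for MRPS12 and UBE2D4 for MRPS24. The strand setting of the counting is not given in the sources used here, so reads of such pairs may not be told apart. MRPS34 (EME2), MRPS25 (NR2C2) and MRPL34 (ABHD8) are among these 27, while MRPS26, MRPL30, MRPL3 and MRPL12 are not.

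Genes that build and serve the mitoribosome were set beside the members. The shares that fell or rose in these lists, and in those below, were not tested against other genes. At 1000 normalized counts or more, 28% of genes passed lower in G2/SCR and 32.1% higher, and some listed genes lie below that level. Of 5 mitoribosome proteins with other names, DAP3, a GTP-binding protein of the small subunit, had 8393, 8031 and 7944 normalized counts in G2 and 10746, 10593 and 10378 in SCR (log2 fold change -0.38, standard error 0.05, adjusted p = 6.1e-05). AURKAIP1, of the same subunit, had a log2 fold change of -0.57 (adjusted p = 1.7e-03), and the other 3 (GADD45GIP1, CHCHD1 and PTCD3) did not pass in G2/SCR. Among 28 genes of mitoribosome assembly and rRNA modification 12 fell and 2 rose in G2/SCR, with a median of -0.12. NOA1, a GTPase, fell by 0.63 on the log2 scale, from a mean of 1263 in SCR to 814 in G2, and TFB1M, which methylates the small subunit RNA, fell by 0.62. MTERF3 rose by 0.86, with 1316 ± 20.3 normalized counts in G2 against 726 ± 2.86 in SCR (mean ± SD, n = 3 each), and it too lies on chromosome 8.

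The 20 genes of mitochondrial translation factors and their partners were all below 0 in G2/SCR, where 14 fell and 6 did not pass, with a median of -0.24. TUFM, the elongation factor that brings tRNA to the ribosome, had means of 12045 in G2, 15872 in SCR and 19109 in WT (log2 fold change -0.40, standard error 0.05, adjusted p = 7.1e-05). OXA1L, which inserts the new chains into the inner membrane, had means of 3853, 5832 and 5771 (-0.60, standard error 0.08, adjusted p = 7.6e-05), and LRPPRC, which stabilizes mitochondrial mRNAs, had 14474, 18854 and 18908 (-0.38, standard error 0.05, adjusted p = 6.1e-05). In SCR/WT the median of this list was -0.02, with 3 lower and 1 higher, whereas the ribosomal proteins had -0.32 and -0.22. The difference between the lists was not tested. Of 19 mitochondrial aminoacyl-tRNA synthetases 7 fell and 2 rose in G2/SCR (36.8% and 10.5%, median -0.08), beside 23.4% and 25.7% of all genes tested. The lower ones included RARS2 (-0.56), PARS2 (-0.45) and HARS2 (-0.38). In G2/WT RARS2 was lower (-0.42, adjusted p = 1.6e-04), while PARS2 (0.18) and HARS2 (-0.12) did not pass. PARS2 and HARS2 were higher in SCR/WT (0.63 and 0.26, adjusted p = 1.3e-04 and 7.4e-03). Of 13 regulators of mitochondrial transcription and biogenesis 6 fell and 3 rose. The mitochondrial RNA polymerase POLRMT (-0.43) and the terminator factor MTERF1 (-0.32) were lower in G2/SCR. In G2/WT POLRMT was lower (-0.37, adjusted p = 0.011) and MTERF1 did not pass (-0.02, adjusted p = 0.85). MTERF1 was higher in SCR/WT (0.3, adjusted p = 0.017). GABPB1, the partner of GABPA at ETS sites, was higher in G2/SCR (0.44, standard error 0.07, adjusted p = 1.9e-04). It was lower in G2/WT (-0.34, adjusted p = 2.7e-03) and SCR/WT (-0.78, adjusted p = 1.7e-05). GABPA itself did not pass in G2/SCR (0.13, adjusted p = 0.4). YY1 (0.13, adjusted p = 0.039) and NRF1 (0.29, adjusted p = 5.9e-03) were higher in G2/SCR. In G2/WT YY1 did not pass (-0.02) and NRF1 was lower (-0.37, adjusted p = 2.5e-03). Both were lower in SCR/WT (-0.16 and -0.66, adjusted p = 0.043 and 9.7e-05).

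A pair of larger families gave a scale for these values, both taken by symbol after the data were seen. Of 82 cytosolic ribosomal proteins 74 fell and 3 rose in G2/SCR, and the medians in G2/SCR, G2/WT and SCR/WT were -0.49, -0.80 and -0.32. Of 70 nuclear genes of the respiratory chain and ATP synthase 25 fell and 6 rose in G2/SCR, with medians of -0.09, -0.42 and -0.30. The mitochondrial ribosomal proteins, with medians over all 77 of -0.12, -0.41 and -0.27, were close in value to the respiratory chain genes.

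**Figure D5:**
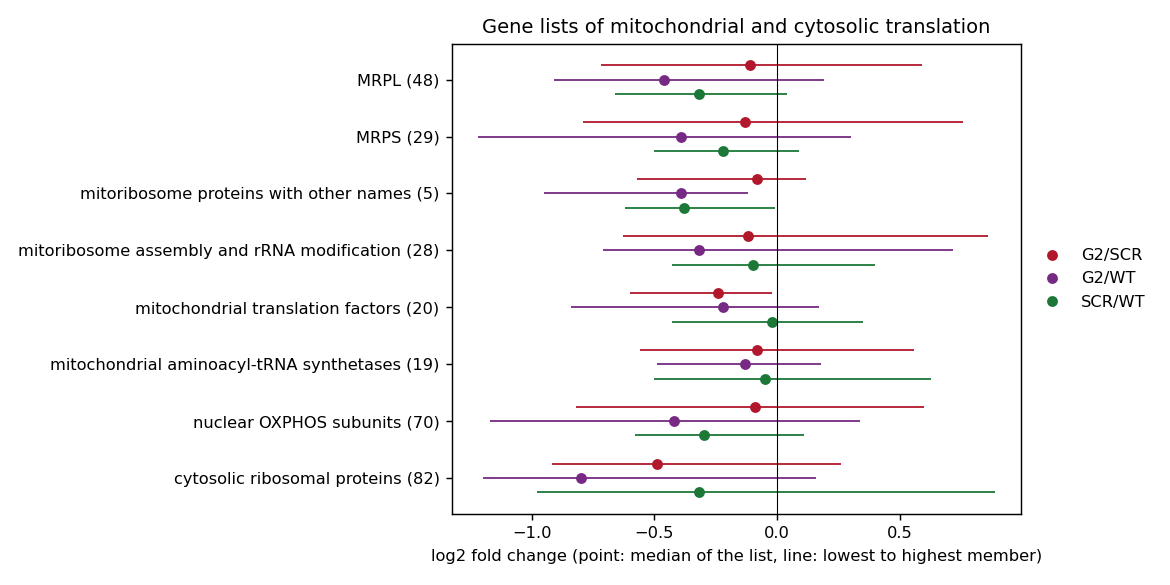
Median (point) and range from lowest to highest member (line) of the log2 fold changes of 8 gene lists, in G2/SCR (red), G2/WT (purple) and SCR/WT (green), with the number of genes tested in parentheses. MRPL and MRPS lie near the respiratory chain (OXPHOS) genes in all 3 comparisons, cytosolic ribosomal proteins lie lower in G2/SCR at a median of -0.49, and translation factors lie near 0 in SCR/WT.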

How the data were processed

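RNA-seq of SH-SY5Y cells gave 8 libraries, 3 of G2, 3 of SCR and 2 of WT, grouped by their labels. The authors aligned reads with STAR (hg38), used featureCounts of Subread 1.5.0 with the FAST DB annotation, and deposited the signal used here, counts normalized by DESeq2, for 47591 entries. Strand and multi-mapping settings are not given in the sources used here. Whole counts were recovered in G2 and SCR (100.00% of values whole to 0.001 of a step), and recovered totals of 59804395 to 81080747 counts per library set the precision.

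Normalized counts were tested with limma 3.58.1 (trend) in R 4.3.3 on log2(value + 1), which understates changes of low genes, for 18947 genes with a mean of at least 10, with 1 mean per line and Benjamini-Hochberg adjustment over all genes. A member passed, rose or fell at an adjusted p of at most 0.05. edgeR 4.0.16 and DESeq2 1.42.0 on recovered counts were alternatives for G2/SCR, beside other pseudocounts, filters, scalings, a replicate block and each library left out. Transcripts came from GENCODE 44, promoters from RefSeq. The script was tested on simulated data. Named members were those DE, those with the smallest p, the highest and lowest per length and a few fixed by role, and in each further list the 3 with the smallest p. MRPL35, MRPL44, MRPS33, GABPA, YY1, NRF1, members shown for a sequence or an overlap, MTERF3's place on its chromosome and cell markers were added after their values were seen. Members, lists and tests were chosen with earlier results of these data known. A gene of the marker lists is not reported here.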

Additional observations from a re-analysis of the deposited data

How the results depend on the processing

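Each library's removal, the pseudocount, the filters, the scaling, the trend in the fit, the libraries fitted together, the replicate block and the subunit of a member were varied as planned. A trend on length and GC content and a scaling without ribosomal RNA entries were added after seeing the data. Of the 29 members that fell in G2/SCR 19 did so under all of these, as did 45 of 61 in G2/WT and 11 of 49 in SCR/WT. The causes were not tested.

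With every library scaled to the same total, the medians of MRPL and MRPS were -0.20 and -0.23 for G2/SCR, -0.27 and -0.21 for G2/WT, and -0.05 and 0.06 for SCR/WT, so that the sign of the last turned. On that scale 20 MRPS members passed in G2/SCR, 14 MRPL and 7 MRPS members passed in SCR/WT, 5 MRPL members were DE in G2/WT and 0 in SCR/WT (limma, with 9 MRPL lower and 5 higher by adjusted p). Without the ribosomal RNA entries in the total the medians were -0.20 and -0.23, -0.34 and -0.27, and -0.11 and -0.01, with 20 MRPS members passing in G2/SCR, 18 MRPL and 6 MRPS members in SCR/WT, and 0 MRPL members DE in SCR/WT. Over all genes the lower and higher calls changed from 4434 and 4867 to 5751 and 3981 in G2/SCR, from 4805 and 5154 to 3004 and 6917 in G2/WT, and from 3476 and 3226 to 1104 and 7476 in SCR/WT.

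Turns of sign are listed only for members that passed in the main fit or in the setting named. Members that passed in neither are left out, also where their sign turned. Among those listed, the log2 fold change turned above 0 at the same total for MRPL15 in G2/WT (0.17) and, in SCR/WT, for MRPL32 (0.25), MRPS14 and MRPL50 (0.23), MRPL45 (0.22), MRPS33 (0.20), MRPL10 (0.17), MRPS16 (0.11), MRPS27 (0.08), MRPL16 (0.07), MRPS35 and MRPS10 (0.06), MRPL42 and MRPS9 (0.05), MRPL1 (0.04), MRPL44, MRPS22 and MRPL18 (0.03), MRPL19 (0.02), MRPS23, MRPS5 and MRPS6 (0.01), and MRPL57 and MRPL35 (0.00). Without ribosomal RNA entries this held for MRPL32 (0.18), MRPS16 (0.04), MRPS27 (0.01) and MRPL16 (0.00). With the length and GC trend removed it held for MRPL23 in G2/SCR (0.00) and MRPL32 in SCR/WT (0.14). That setting gave 1 DE member of MRPL in G2/SCR, 7 in G2/WT and 0 in SCR/WT. In G2/SCR it left 3 MRPS members DE lower, against 4 in the main fit. The G2/SCR medians with the trend removed were -0.06 (MRPL) and -0.16 (MRPS), against -0.11 and -0.13 in the main fit. They were -0.30 (MRPL) and -0.29 (MRPS) in G2/WT, and -0.23 (MRPL) and -0.16 (MRPS) in SCR/WT.

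Fitting only the 2 lines compared gave 20 MRPS members in G2/SCR and 11 in SCR/WT, and a fit with no trend gave 9 in SCR/WT. In G2/SCR, edgeR and DESeq2 each called 19 MRPL and 16 MRPS members lower.

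Over the fits without 1 library the members passing in G2/SCR, G2/WT and SCR/WT numbered 16 to 24, 34 to 43 and 23 to 42 for MRPL, and 10 to 20, 22 to 28 and 8 to 24 for MRPS. Members DE numbered 1 to 3, 8 to 24 and 0 to 10 for MRPL, and 5 to 5, 4 to 9 and 0 to 3 for MRPS. The medians ran from -0.11 to -0.07, from -0.58 to -0.33 and from -0.49 to -0.20 for MRPL, and from -0.15 to -0.13, from -0.48 to -0.26 and from -0.33 to -0.14 for MRPS. PRPF40B ran from -0.99 to -0.93, from -1.19 to -0.95 and from -0.23 to 0.01.

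Deviations of same-numbered libraries correlated between -0.17 and 0.15, and those of differently numbered libraries between -0.2 and 0.17. The deviations within a line offset each other, as in -0.17 and 0.17 for G2 replicate 1 with the WT libraries. These correlations therefore cannot decide whether libraries were paired. The library names carry other numbers, and pairing by those was not tested. A replicate block gave 17 MRPL and 11 MRPS members lower in G2/SCR, against 17 and 12 without it, and 1 MRPS member DE in SCR/WT.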
